A study of Mus musculus with 12 samples.

Results

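The cytosolic ribosomal protein genes, which encode the proteins of the ribosomes that translate nuclear-encoded mRNA, were taken from the annotation by name. A gene was a member when its symbol was Rps or Rpl followed by a number (with an optional letter or paralog ending), or was Rpsa, Rplp0, Rplp1 or Rplp2, and when it was not named as a pseudogene with -ps. The rule found 89 members among 56980 annotated features, 36 of the small (40S) and 53 of the large (60S) subunit, and used no measured value. Of these, 87 passed the filter on low counts and were among the 12052 genes tested, and Rpl3l and Rpl10l did not. The mouse annotation GENCODE M21 lists 83 members as protein-coding and 6 (Rpl32l, Rpl6l, Rps12l1, Rps3a2, Rps3a3 and Rps4l) as processed or transcribed processed pseudogenes.

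A ribosome holds 1 copy of nearly every ribosomal protein, so the cell makes these proteins in matched amounts, and the mRNAs are among the most abundant of any dividing or protein-secreting cell. Many of the mRNAs begin with a run of pyrimidines (C and T in the DNA), the 5′ terminal oligopyrimidine or TOP motif, through which the kinase mTORC1 and the RNA-binding protein Larp1 set how strongly they are translated and how long they are kept. mTORC1 is activated on the surface of lysosomes, and ribosomes themselves can be broken down in lysosomes. In macrophages the demand for ribosomes changes with proliferation and with activation.

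RNA came from mouse bone-marrow-derived macrophages, marrow cells differentiated with the growth factor M-CSF, frozen, thawed and plated again. The cells were a Trem2 knockout (KO) or wild type (WT), and Trem2 encodes a receptor of macrophages and microglia that binds lipids. Each genotype received 25 nM BafA1 (bafilomycin A1), which blocks the proton pump that acidifies lysosomes, or the vehicle DMSO, for 22 hours in both cases. The 4 groups of 3 libraries are called KO BafA1, KO DMSO, WT BafA1 and WT DMSO here, and each biological replicate was made from the pooled bones of several mice. No source used here gives the strain, the age or which part of Trem2 was deleted.

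Sequences around the annotated start are shown first because a TOP run, where present, lies at the start of the mRNA. RefSeq promoter sequences (build GRCm38.p6) were matched by symbol to 64 of the 89 members. The next lines give 50 bases from 20 before to 30 after the start, 5′ to 3′ on the gene's strand, with the longest run of C and T in capitals. Rps12, Rpl36a, Rpl10a and Rps9 had the largest decreases in KO DMSO against WT DMSO among protein-coding members with an entry and a mean of at least 100 CPM, and Rpl19, Rpl13a, Rps27l and Rpl9 had the highest log2 values in that comparison.
Rps12 (chr10:23787180-23787229, minus strand): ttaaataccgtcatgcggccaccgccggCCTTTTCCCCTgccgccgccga
Rpl36a (chrX:134585634-134585683, plus strand): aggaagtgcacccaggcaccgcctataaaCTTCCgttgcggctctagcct
Rpl10a (chr17:28328545-28328594, plus strand): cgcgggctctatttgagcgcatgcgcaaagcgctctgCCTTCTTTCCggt
Rps9 (chr7:3704021-3704070, plus strand): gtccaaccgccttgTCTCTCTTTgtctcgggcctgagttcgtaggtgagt
Rpl19 (chr11:98026904-98026953, plus strand): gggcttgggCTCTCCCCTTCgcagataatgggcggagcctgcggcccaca
Rpl13a (chr7:45128716-45128765, minus strand): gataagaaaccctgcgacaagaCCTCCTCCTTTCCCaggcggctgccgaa
Rps27l (chr9:66946066-66946115, plus strand): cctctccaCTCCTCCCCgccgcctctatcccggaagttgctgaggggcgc
Rpl9 (chr5:65391402-65391451, minus strand): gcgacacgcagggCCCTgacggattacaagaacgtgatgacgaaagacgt
The runs were 11, 5, 10 and 9 bases long in the first 4 genes and 11, 14, 9 and 4 bases long in the others, so long and short runs stood in both sets. Of the runs in capitals, that of Rps9 alone covered the annotated start, so the capitals do not mark TOP motifs as such.

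Over all entries, 35 of 64 members (54.7%) had a run of at least 8 C or T bases in this window in at least 1 annotated start, against 5811 of 27025 genes (21.5%). A run of at least 5 such bases that covered the annotated start itself was present in 21 of 64 members (32.8%) and in 11.8% of all genes. Of the letter motifs searched on both strands of the 300 bases from 250 before to 50 after the start, CCGGAAG, the core that GABP and other ETS factors bind, was present in 40.6% of members and 9.93% of all genes. ATGGCGG, a YY1 core, was present in 17.2% of members and 4.69% of all genes, and GGGCGG, an SP1 core, in 60.9% and 38.2%. The E-box CACGTG, which Myc binds, was present in 9.38% of members and 8.09% of all genes, and TATAA in 29.7% and 28%. The palindrome core TCTCGCGA was present in 11 of 64 members (17.2%) and in 1.13% of all genes. It is shown in capitals, as read on the gene's strand, in the 3 most abundant members that hold it.
Rpl27a (chr7:109519158-109519197, plus strand): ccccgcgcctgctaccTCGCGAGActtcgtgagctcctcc
Rps28 (chr17:33824540-33824579, minus strand): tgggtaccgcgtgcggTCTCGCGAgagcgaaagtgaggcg
Rps15a (chr7:118116190-118116229, minus strand): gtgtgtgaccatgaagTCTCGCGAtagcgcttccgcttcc
A match is only a match of letters and does not show that a factor was bound.

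Libraries held 4407466 to 7074860 estimated counts. All values below are CPM (estimated counts brought to a common library total) scaled by TMM, a normalization that sets most genes equal between libraries, and the libraries came from the 3′ ends of mRNA. Trem2 itself had 149, 147 and 182 CPM in KO BafA1, 219, 199 and 217 in KO DMSO, 401, 400.5 and 401 in WT BafA1, and 619, 569.7 and 575 in WT DMSO. The KO libraries were lower than the WT libraries but not at 0, and a tag outside the deleted part can still be counted, so this checks the labels only in part. All 10 macrophage markers were expressed, at a summed 5472 to 9332 CPM per library, while the lists for dendritic, B, T, erythroid, mast and stromal cells (6 markers each) summed to at most 9.25 CPM in any library and Hba-a1 was at 0 in all. Cell-cycle, granulocyte and macrophage markers moved with the comparisons and are given beside each.

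The members differed in level by several orders of magnitude, and 78 of 89 had a mean of at least 100 CPM. The libraries read the 3′ end of each transcript, so CPM was not divided by length, and read assignment to near-identical pseudogenes makes each level uncertain: 93.9% of the members' values above 0 were not whole numbers (tolerance 1e-06), against 42% of all values above 0. The highest means were those of Rps27a, a ubiquitin fusion that yields an S27a protein, Rps12, Rps29, Rps23, a protein of the decoding centre, and Rpl23. Rps29 had 1934, 1888 and 2056 CPM in KO BafA1, 2374, 2010.2 and 2317 in KO DMSO, 1937, 2021 and 1932 in WT BafA1, and 2545, 2356 and 2161 in WT DMSO. Rps23 had 1915, 1857 and 2206 CPM in KO BafA1, 1432, 1370.3 and 1629 in KO DMSO, 2030.1, 2044 and 1993 in WT BafA1, and 2210.3, 1920.1 and 1826 in WT DMSO. Rpl23 had 1727, 1677 and 1881 CPM in KO BafA1, 1439, 1402 and 1481 in KO DMSO, 1902, 1985 and 1903 in WT BafA1, and 1969, 1719 and 1770.0 in WT DMSO. For Rps29 the WT BafA1 libraries lay below the WT DMSO libraries without overlap, and for Rps23 and Rpl23 the KO DMSO libraries were the lowest. The tissue-restricted Rpl10l and Rpl3l, which replace Rpl10 in testis and Rpl3 in muscle, reached at most 0.462 and 0.503 CPM in any library.

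Members together took 5.82, 5.38 and 6.1% of all counts in KO BafA1 libraries, 4.81, 4.79 and 5.18% in KO DMSO, 5.65, 5.92 and 5.57% in WT BafA1 and 6.52, 6.01 and 5.82% in WT DMSO. The 3 KO DMSO libraries were the lowest of all 12, and the other groups overlapped each other. The means were 5.76 ± 0.36% in KO BafA1, 4.93 ± 0.218% in KO DMSO, 5.71 ± 0.184% in WT BafA1 and 6.12 ± 0.362% in WT DMSO (SD, n = 3 each). With mitochondrially encoded genes left out of the total, the means were 6.02 ± 0.379%, 5.28 ± 0.251%, 5.94 ± 0.187% and 6.42 ± 0.393% in the same order of groups. These shares are descriptions with no test. In bulk RNA, fewer cells of a type and less RNA per cell cannot be told apart.

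**Figure D1:**
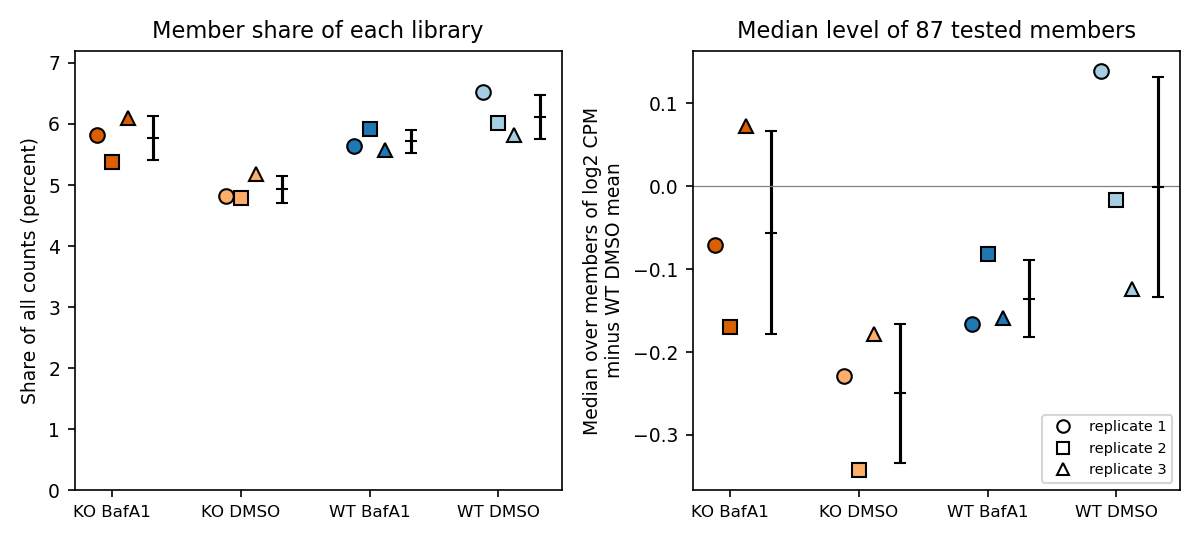
Left, share of all estimated counts (percent) in the 89 members, right, median over the 87 tested members of log2 CPM minus the WT DMSO mean, for each library (symbols mark replicates; the bar is the mean ± SD of 3 libraries). The KO DMSO libraries hold 4.79% to 5.18% of their counts in members, below every other library.

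The members moved together from library to library, also within groups. Relative to the WT DMSO mean of each gene, the median member stood at -0.0705, -0.17 and 0.0731 in KO BafA1, -0.229, -0.343 and -0.178 in KO DMSO, -0.166, -0.082 and -0.159 in WT BafA1 and 0.139, -0.0168 and -0.124 in WT DMSO (log2). The spread between replicates was 0.105 (pooled SD), WT DMSO replicate 1 and KO BafA1 replicate 3 stood highest, and KO DMSO replicate 2 lowest. The median pairwise Pearson r between members was 0.735 in deviations from the group means, a description over 12 libraries, in each of which the members share depth and scaling. Counts of members below are therefore not counts of independent events, and 1 library can move many of them at once.

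Without BafA1, many ribosomal protein mRNAs were lower in KO macrophages. Against WT DMSO, 46 of 87 members fell and 1 rose in KO DMSO, where 16.5% of all genes tested were lower and 13.8% higher (edgeR quasi-likelihood test, adjusted p below 0.05). The median log2 fold change was -0.25 over the members and -0.0073 over all genes tested. Both subunits took part, with 19 of 36 small-subunit and 27 of 51 large-subunit members lower. Among the 81 tested members listed as protein-coding, 46 fell and 1 rose, and none of the 6 listed as pseudogenes passed the threshold in edgeR (unadjusted p was below 0.05 in 2).

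Rps27a, the most abundant member, had the largest decrease. It stood at 1469, 1579 and 1685 CPM in KO DMSO, against 2823, 2536 and 2304 CPM in WT DMSO, with no overlap. KO DMSO held 0.618 of the WT DMSO level, a log2 fold change of -0.69 (SE 0.085, adjusted p = 1.22e-06). Rps12, a small-subunit protein known in Drosophila for its part in competition between cells that differ in ribosomal protein dose, had 1456, 1459 and 1707 CPM in KO DMSO, against 2591, 2293 and 2082 CPM in WT DMSO, and changed by -0.59 (SE 0.092, adjusted p = 2.9e-05). Its lowest WT DMSO library was well above its highest KO DMSO library. Rpl22l1, a paralog that can take the place of Rpl22, had 69.1, 62.6 and 75.5 CPM in KO DMSO, against 118, 103 and 89.9 CPM in WT DMSO, and changed by -0.58 (SE 0.12, adjusted p = 0.000698). Rpl36a changed by -0.55 (SE 0.092, adjusted p = 6.51e-05), and Rpl10a, a protein of the large subunit's L1 stalk, by -0.48 (SE 0.076, adjusted p = 4.05e-05). Features named as Rpl36a pseudogenes held 34.2% of the counts of Rpl36a and those features together. In these 5 genes no KO DMSO library reached a WT DMSO library.

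Rpl7l1, a paralog of Rpl7 whose yeast counterpart acts in assembly of the large subunit, was the member that rose. It had 80.2, 70.2 and 73.6 CPM in KO DMSO, against 61.3, 56.6 and 59.9 CPM in WT DMSO, with no overlap, and changed by 0.33 (SE 0.093, adjusted p = 0.00843). Rpl7 itself fell, with 810.4, 771 and 834 CPM in KO DMSO, against 1088, 987 and 954 CPM in WT DMSO, and a log2 fold change of -0.33 (SE 0.079, adjusted p = 0.00275). The pair thus moved in opposite directions.

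Other measures moved with this comparison, and their part in it was not tested. The 20 cell-cycle genes listed, all lower in KO DMSO, summed to 403 to 482 CPM in KO DMSO, against 1462 to 1556 CPM in WT DMSO. Granulocyte markers (11 listed, 7 tested and all 7 higher) summed to 392 to 679 CPM in KO DMSO, against 153 to 170.3 CPM in WT DMSO. Of the 10 macrophage markers 4 were higher and 3 lower in KO DMSO than in WT DMSO. Mitochondrially encoded genes took 7.36, 5.74 and 6.9% of counts in KO DMSO, against 4.75, 4.8 and 4.25% in WT DMSO. Without WT DMSO replicate 1, the highest library, 29 members were lower, and without WT DMSO replicate 3, 52 were.

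**Figure D2:**
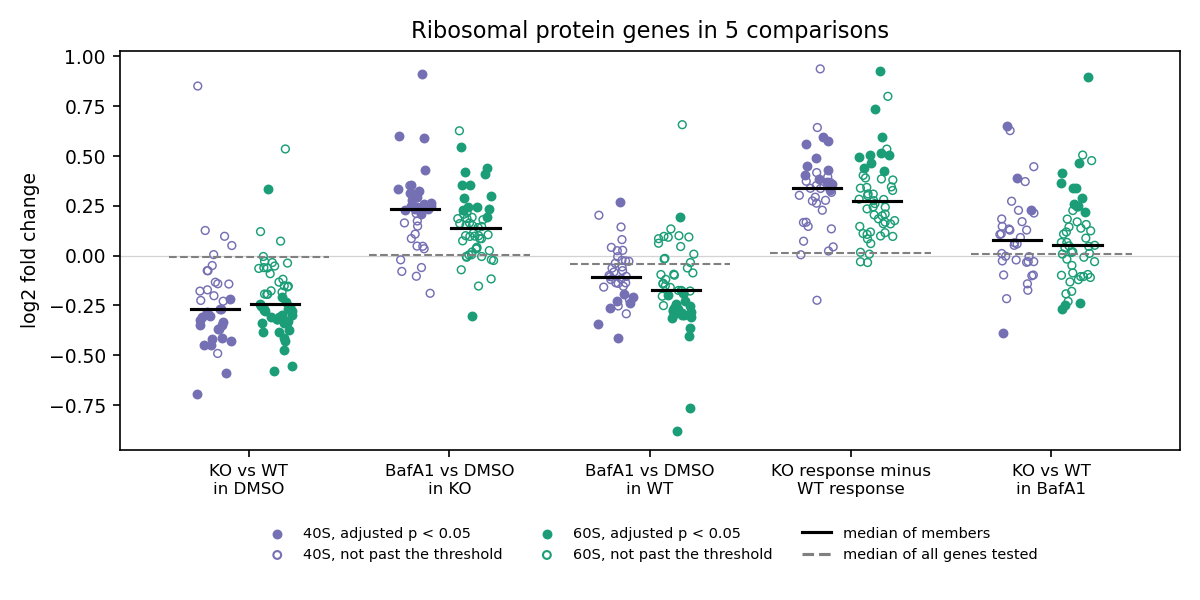
Log2 fold change (y axis) of each tested member in 5 comparisons, split by subunit (36 of the 40S, 51 of the 60S), filled where the adjusted p was below 0.05. Black lines are member medians and dashed lines the medians of all 12052 genes tested. Members lie mostly below 0 for KO against WT in DMSO and mostly above 0 for BafA1 in KO and for the difference of the responses.

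With BafA1, more members were higher than lower in KO macrophages. Against KO DMSO, 33 of 87 members rose and 1 fell in KO BafA1, where 19.8% of all genes tested were higher and 20.7% lower. The median log2 fold change was 0.17 over the members and 0.0019 over all genes tested. Of the small subunit 20 of 36 members rose and none fell (1 lower at an unadjusted p below 0.05), and of the large subunit 13 of 51 rose. Other measures moved here too, and their part was not tested. All 7 tested granulocyte markers fell, to a sum of 70.8 to 126 CPM in KO BafA1, against 392 to 679 CPM in KO DMSO, 9 of 10 macrophage markers fell, to 5472 to 6854 CPM in KO BafA1, against 7978 to 9332 CPM in KO DMSO, and 8 of 20 cell-cycle genes fell. Mitochondrially encoded genes took 4.28, 4.22 and 4.3% of counts in KO BafA1, against 7.36, 5.74 and 6.9% in KO DMSO. Of the 33 members, 26 were also among those lower in KO DMSO than in WT DMSO, a count that shares the KO DMSO libraries between both comparisons.

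Rps12 reached 2313, 2105 and 2602 CPM in KO BafA1, against 1456, 1459 and 1707 CPM in KO DMSO, a log2 fold change of 0.60 (SE 0.092, adjusted p = 1.41e-05). Rps27a reached 2372, 2169 and 2578 CPM in KO BafA1, against 1469, 1579 and 1685 CPM in KO DMSO, and changed by 0.59 (SE 0.085, adjusted p = 6.83e-06). In both genes all KO BafA1 libraries lay above all KO DMSO libraries and within or near the range of the WT libraries. Rpl22l1 had 116, 81.1 and 103 CPM in KO BafA1, against 69.1, 62.6 and 75.5 CPM in KO DMSO, and changed by 0.54 (SE 0.12, adjusted p = 0.000929). Rpl10, whose loading is a late step of large-subunit maturation, changed by 0.44 (SE 0.13, adjusted p = 0.00713) with overlap between libraries, and features named as its pseudogenes held 71.2% of the counts of Rpl10 and those features together. Rps12l1, listed as a processed pseudogene, had the largest fitted value among members called, 0.91 (SE 0.22, adjusted p = 0.00208), at only 28.4, 20.0 and 26.6 CPM in KO BafA1, against 10.2, 11.1 and 19.2 CPM in KO DMSO.

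Rpl5, which with Rpl11 and the 5S rRNA forms a particle that can bind the p53 regulator MDM2, rose in KO BafA1 to 717, 706 and 818 CPM, against 579, 538 and 569.6 CPM in KO DMSO, and changed by 0.41 (SE 0.077, adjusted p = 0.000161). Rpl11 had 460.4, 439 and 500.2 CPM in KO BafA1, against 464, 448 and 495 CPM in KO DMSO, which overlap, with a log2 value of -0.0079 (SE 0.077, adjusted p = 0.948). The difference between these genes was not tested. Rpl7l1 was the member that fell, with 53.7, 65.5 and 63.4 CPM in KO BafA1, against 80.2, 70.2 and 73.6 CPM in KO DMSO, a change of -0.30 (SE 0.093, adjusted p = 0.0127). Without KO BafA1 replicate 3, 16 members rose, without KO DMSO replicate 2, 19, and without KO BafA1 replicate 2, 45.

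With BafA1, more members were lower than higher in WT macrophages. Against WT DMSO, 27 of 87 members fell and 2 rose in WT BafA1, where 25.3% of all genes tested were lower and 21.6% higher. The share of members that fell was thus near that of all genes, and the share that rose was below it. The median log2 fold change was -0.14 over the members and -0.044 over all genes tested. Of the large subunit 20 of 51 members fell, and of the small subunit 7 of 36. Without WT DMSO replicate 1, 9 members fell, without WT BafA1 replicate 1, 11, and without WT BafA1 replicate 3, 12.

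Rpl10a had 469, 484 and 440.1 CPM in WT BafA1, against 646, 611 and 585 CPM in WT DMSO, a log2 fold change of -0.40 (SE 0.075, adjusted p = 0.000123). Rps18, a protein of the small subunit's head, had 784, 756 and 731 CPM in WT BafA1, against 1131, 996 and 899 CPM in WT DMSO, and changed by -0.41 (SE 0.096, adjusted p = 0.0011). Neither gene had a WT BafA1 library as high as any WT DMSO library. Rpl35a changed by -0.36 (SE 0.096, adjusted p = 0.00349), and the low-level pseudogene entries Rpl6l and Rpl32l by -0.88 (SE 0.19, adjusted p = 0.000453) and -0.76 (SE 0.23, adjusted p = 0.00773). The members that rose were Rps3a1, with 623, 611 and 588 CPM in WT BafA1, against 531, 489 and 493 CPM in WT DMSO (0.27 on the log2 scale, adjusted p = 0.00224), and Rpl31, with 911, 998 and 938 CPM in WT BafA1, against 876, 785 and 826 CPM in WT DMSO (0.20, adjusted p = 0.0221). Both also rose in KO BafA1 against KO DMSO, by 0.31 and 0.36. All 20 cell-cycle genes fell in WT BafA1 against WT DMSO, to a sum of 448 to 478 CPM in WT BafA1, against 1462 to 1556 CPM in WT DMSO, and 8 of the 20 fell in KO BafA1 against KO DMSO, to 324 to 377 CPM in KO BafA1, against 403 to 482 CPM in KO DMSO. All 7 tested granulocyte markers fell in WT BafA1, to a sum of 46.5 to 58.6 CPM, against 153 to 170.3 CPM in WT DMSO. Of the 10 macrophage markers 9 fell and 1 rose, with sums of 5550.0 to 6104 CPM in WT BafA1, against 7814 to 8373 CPM in WT DMSO. Mitochondrially encoded genes took 3.81, 3.72 and 3.84% of counts in WT BafA1, against 4.75, 4.8 and 4.25% in WT DMSO. The part of these measures in the members' values was not tested.

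**Figure D3:**
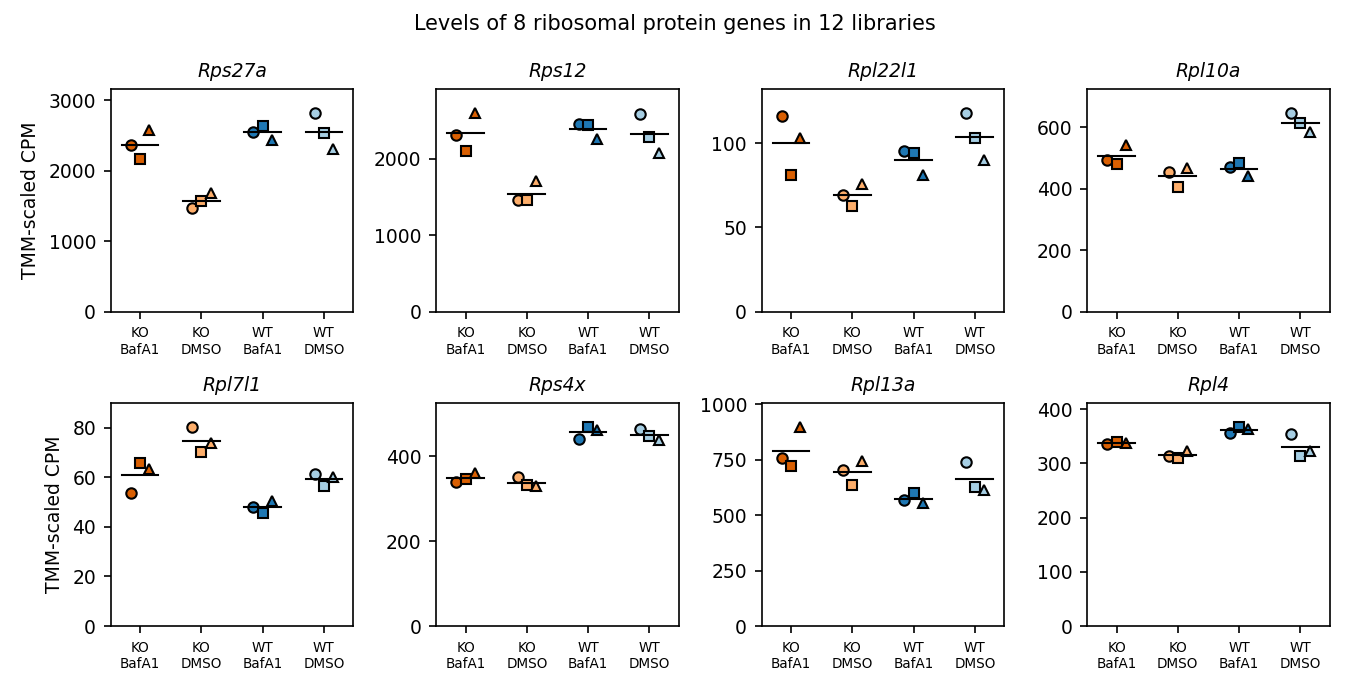
TMM-scaled CPM (y axis, from 0) of 8 members in each of the 12 libraries, with symbols for replicates and lines for group means. Rps27a and Rps12 are low in KO DMSO alone, Rpl7l1 is high there, Rps4x is lower in both KO groups, and Rpl4 differs little between groups.

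For part of the members the response to BafA1 differed between the genotypes. The difference of the responses (KO minus WT) was above 0 in 84 of 87 members, which do not move independently, and in 6235 of all 12052 genes tested. It passed the threshold in 21 members, each of them more positive in KO. Of all genes tested 4.88% were called in that direction and 3.93% in the other. No member was called in the other direction by edgeR, DESeq2 or limma-voom, and 0 were at an unadjusted p below 0.05. The median difference was 0.30 (log2) over the members and 0.015 over all genes tested. Of the 21, 11 were small-subunit and 10 large-subunit members, and 17 were also called lower in KO DMSO against WT DMSO. The difference equals KO against WT in BafA1 (member median 0.065) minus KO against WT in DMSO (member median -0.25). It is thus not independent of the lower values in KO DMSO. Cell-cycle genes moved the same way, with 15 of 20 called more positive in KO, all 20 above 0 and a median difference of 1.64. Of the 7 tested granulocyte markers 1 was called, with a more negative response in KO, as was 1 of 10 macrophage markers. The part of these genes in the members' difference was not tested.

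The members called with the largest difference were the pseudogene entry Rpl6l (0.92, SE 0.26, adjusted p = 0.0291) and then Rpl22l1 (0.74, SE 0.17, adjusted p = 0.00737), Rpl10a (0.59, SE 0.11, adjusted p = 0.00118), Rps27a (0.59, SE 0.12, adjusted p = 0.00299) and Rps18 (0.58, SE 0.14, adjusted p = 0.00976). Their responses in each genotype are given next, and differences between these genes were not tested. In Rps27a the WT response was -0.0052 and the KO response 0.59, in Rps18 the WT response was -0.41 and the KO response 0.16. In Rpl10a both responses passed the threshold, at -0.40 in WT and 0.19 in KO, values close to those of Rps18. Rpl3, which lines the peptidyl transferase centre, also fell in WT BafA1 (-0.27) and rose in KO BafA1 (0.23). It had 359.9, 355 and 399 CPM in KO BafA1, 327, 298 and 326 in KO DMSO, 324, 327 and 306 in WT BafA1, and 393, 388 and 371 in WT DMSO. Its WT BafA1 and KO DMSO libraries were low and its KO BafA1 and WT DMSO libraries high.

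Across the 87 members the responses in KO and in WT, which share no library, had a Spearman rho of 0.482, given as a description over genes that are not independent. Members that fell most in WT thus tended to rise least in KO, and 84 of 87 had the higher value in KO. Over the 4 group means, KO DMSO was the lowest in 51 of 87 members, against 24.3% of all genes tested, and WT DMSO was the highest in 49, against 27.2%. The count of 21 moved strongly with single libraries. It was 7 without KO BafA1 replicate 3, KO DMSO replicate 2 or WT DMSO replicate 1, 8 without WT BafA1 replicate 1 or 3, and 9 without KO DMSO replicate 1. It was 10 without WT DMSO replicate 2, 13 without KO BafA1 replicate 1 and 36 without WT DMSO replicate 3. Rps23, Rpl41, Rpl35a, Rpl6l, Rpl22 and Rpl36a each lost their call without 4 or more of the libraries in turn.

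**Figure D4:**
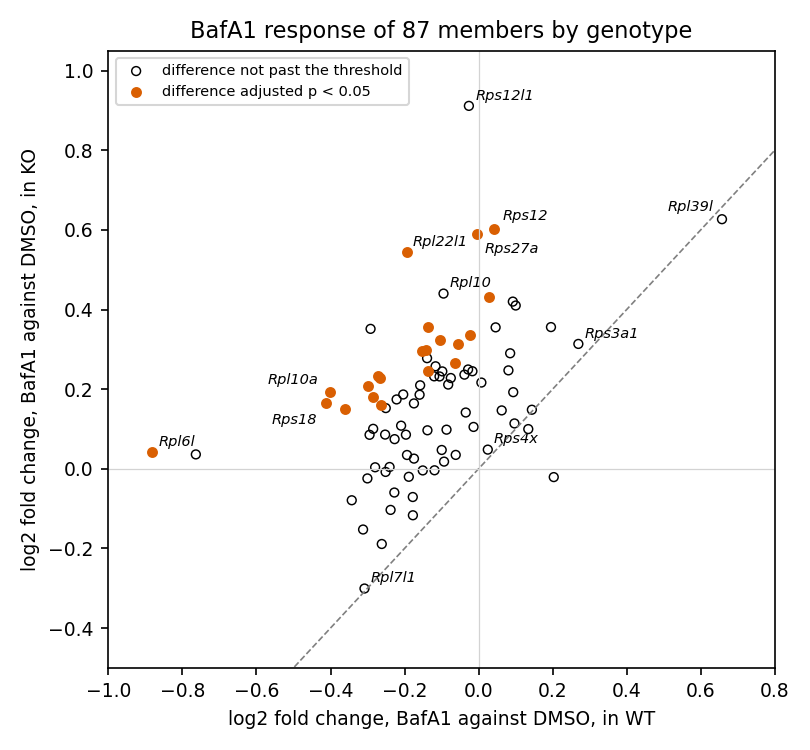
Log2 fold change under BafA1 in KO (y axis) against that in WT (x axis) for the 87 tested members, filled where the difference passed the threshold. The dashed line marks equal responses, and 84 of the 87 members lie above it. Of all 12052 genes tested, not drawn here, 6235 had a difference above 0.

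Under BafA1 the share of members called was below that of all genes tested in the lower direction and near it in the higher one. Against WT BafA1, 13 of 87 members were higher and 4 lower in KO BafA1, where 12.5% of all genes tested were higher and 14.2% lower. The median log2 fold change was 0.065 over the members and 0.011 over all genes tested, and without KO BafA1 replicate 3 the members' median was -0.0043. Without WT BafA1 replicate 1 or KO BafA1 replicate 3, 5 were higher, and without WT BafA1 replicate 3, 6. Without either WT DMSO replicate 1 or WT DMSO replicate 3, 8 were lower, and without KO BafA1 replicate 2, WT BafA1 replicate 1 or WT BafA1 replicate 3, 2. Cell-cycle genes were lower in KO BafA1 for 14 of 20 (median -1.29), with sums of 324 to 377 CPM in KO BafA1, against 448 to 478 CPM in WT BafA1. Granulocyte markers were higher for 3 of 7 (median 1.21), with sums of 70.8 to 126 CPM in KO BafA1, against 46.5 to 58.6 CPM in WT BafA1, and of 10 macrophage markers 2 were higher and 4 lower. Their part in the members' values was not tested. The share of counts in members differed between both groups by less than the spread between libraries.

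Single members still stood apart. Rpl13a, known in human monocytes as part of a complex that silences inflammatory mRNAs, had 755, 719.8 and 896 CPM in KO BafA1, against 568, 597 and 554 CPM in WT BafA1, a log2 fold change of 0.46 (SE 0.089, adjusted p = 0.000535) with no overlap. Rpl41, the smallest ribosomal protein, changed by 0.42 (SE 0.098, adjusted p = 0.00338) and Rps27l, a p53-induced paralog of Rps27, by 0.39 (SE 0.11, adjusted p = 0.01). The pseudogene entries Rpl6l and Rps3a2 changed by 0.90 (SE 0.19, adjusted p = 0.00125) and 0.65 (SE 0.17, adjusted p = 0.0062). Rps4x, the X-linked gene of the small-subunit protein S4, was the lowest, with 339, 346 and 361 CPM in KO BafA1, against 441, 468 and 460.4 CPM in WT BafA1, and changed by -0.39 (SE 0.067, adjusted p = 0.000179). It was also lower in KO DMSO, with 351, 331 and 329.6 CPM, against 463, 447 and 437 CPM in WT DMSO (-0.41, SE 0.067, adjusted p = 4.85e-05), and every KO library lay below every WT library.

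Rpl28 and Rpl36 shared this pattern and were, with Rps4x, among the 4 members called lower in KO under both treatments. Their log2 fold changes of KO against WT were -0.25 and -0.24 in BafA1 and -0.31 and -0.39 in DMSO, with adjusted p of 0.0201 and 0.0272 in BafA1. Their difference of responses did not pass the threshold (Rps4x 0.023, 95% interval -0.16 to 0.21). Features named as Rpl36 pseudogenes held 35.9% of the counts of Rpl36 and those features together. Rpl7l1 was the member called higher in KO under both treatments, by 0.34 in BafA1 (adjusted p = 0.0105).

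Of the members with special roles only some passed the threshold, and differences between them were not tested. Of the stalk proteins, which recruit elongation factors, Rplp0 and Rplp1 fell in KO DMSO against WT DMSO, the second only just (-0.28 and -0.21, adjusted p = 0.0126 and 0.0465), and Rplp2 gave -0.19 (SE 0.097, adjusted p = 0.144). Rps6, the substrate of S6 kinase, had 341, 350.0 and 362 CPM in KO BafA1, 323, 313 and 314 in KO DMSO, 392, 408 and 387 in WT BafA1, and 385, 348 and 343 in WT DMSO. Its KO DMSO libraries were the lowest and its WT BafA1 libraries the highest, without a call in any comparison (adjusted p = 0.0553 for KO against WT in DMSO). Rpsa, also known as the laminin receptor precursor, fell in KO DMSO against WT DMSO (-0.37, SE 0.071, adjusted p = 0.000302) and in WT BafA1 against WT DMSO (-0.19, SE 0.07, adjusted p = 0.0261).

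Of 8 paralogs and tissue-restricted forms 6 were tested, and against WT DMSO 1 rose (Rpl7l1) and 1 fell (Rpl22l1) in KO DMSO. Rpl22, the partner of Rpl22l1, had 476, 429.7 and 546 CPM in KO BafA1, 454, 374 and 454 in KO DMSO, 374, 419.7 and 394 in WT BafA1, and 528, 481 and 440.3 in WT DMSO. It fell in WT BafA1 against WT DMSO (-0.29, SE 0.093, adjusted p = 0.0147), while Rpl22l1 gave -0.19 (SE 0.12, adjusted p = 0.176). Against WT DMSO, KO DMSO gave -0.18 (SE 0.094, adjusted p = 0.166) for Rpl22, whose libraries overlapped. Rps27 rose in KO BafA1 against KO DMSO (0.23, SE 0.088, adjusted p = 0.0415), and Rps27l gave 0.086 (SE 0.11, adjusted p = 0.565). Rpl39 fell in KO DMSO, with 619, 532 and 580.0 CPM, against 847, 763 and 722 CPM in WT DMSO (-0.43, SE 0.087, adjusted p = 0.000586). Its germ-cell paralog Rpl39l lay between 0.841 and 7.81 CPM in all libraries, and Rps4l, the retrocopy of Rps4x, between 1.92 and 8.56, with no call for either.

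No call was made in any of the 5 comparisons for 15 members, among them Rpl19, Rpl23a, Rpl24, Rpl27, Rpl29, Rpl39l, Rpl4, Rpl8, Rplp2, Rps16, Rps3a3, Rps4l and Rps6. Rpl4 had 337, 339.8 and 338 CPM in KO BafA1, 313, 311 and 323 in KO DMSO, 356, 367 and 364 in WT BafA1, and 354, 313 and 324 in WT DMSO. Its 95% interval for KO against WT in DMSO was -0.2 to 0.069 on the log2 scale, which leaves out decreases as large as those of Rps27a and Rps12.

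The runs of C and T counted above were set beside the responses as a description. For KO against WT in DMSO, the median log2 fold change was -0.27 over the 35 tested members with a run of at least 8 C or T bases and -0.19 over the 27 without one. For the difference of the responses the medians were 0.34 and 0.28. For the run of at least 5 bases that covered the start itself, the medians for KO against WT in DMSO were -0.30 over 21 members with it and -0.19 over 41 without it, and for the difference of the responses 0.34 and 0.29. With CCGGAAG the median for KO against WT in DMSO was -0.26 over 26 members, and without it -0.27 over 36. With TCTCGCGA it was -0.25 over 11 members, and without it -0.27 over 51. For KO against WT in DMSO the gap was widest for the run that covered the start. For the difference of the responses it was wider for the run of at least 8 bases than for the run covering the start. The ranges of the sets overlapped in each of these splits.

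Ribosomal proteins outside the name rule moved in part with the members. Of 5 such genes, Rack1 among them, 2 fell (40%) and none rose in KO DMSO against WT DMSO (0 higher at an unadjusted p below 0.05). Of all genes tested 16.5% were lower and 13.8% higher there. In KO BafA1 against KO DMSO 2 rose (40%, against 19.8% of all genes), and in WT BafA1 against WT DMSO 1 rose and 1 fell. Rpl36al rose with BafA1 in both genotypes, by 0.38 in WT (adjusted p = 0.00127) and 0.43 in KO (adjusted p = 0.000458). For KO against WT in DMSO it gave 0.18 (adjusted p = 0.147). Rack1, a scaffold of the small subunit, had 679, 670.1 and 738 CPM in KO DMSO, against 918, 863 and 795 CPM in WT DMSO (-0.30, SE 0.081, adjusted p = 0.00585).

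Few mitochondrial ribosomal protein genes were lower in KO macrophages. Of 78 tested, 12 were higher (15.4%) and 4 lower (5.13%) in KO DMSO against WT DMSO, with a median log2 fold change of 0.075. Of all genes tested 13.8% were higher and 16.5% lower, so the higher share was near that of all genes and the lower share below it. For 1 gene the difference of responses passed the threshold. In KO BafA1 against KO DMSO 24 rose (30.8%) and 2 fell (2.56%), where 19.8% of all genes were higher and 20.7% lower. In WT BafA1 against WT DMSO 23 rose (29.5%) and 3 fell (3.85%), where 21.6% of all genes were higher and 25.3% lower. The difference between both kinds of ribosome was not tested.

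A list of 10 genes of translation elongation held the factors and also Eef2k, Eef1akmt1 (enzymes that modify factors) and Eef1e1 (a scaffold of aminoacyl-tRNA synthetases). Of these, 3 fell (30%) and none rose in KO DMSO against WT DMSO (0 higher at an unadjusted p below 0.05). In that comparison 16.5% of all genes tested were lower and 13.8% higher. Eef1b2, which recharges Eef1a1 with GTP, changed by -0.60 (SE 0.079, adjusted p = 3.45e-06) there and by 0.40 (SE 0.079, adjusted p = 0.000283) in KO BafA1 against KO DMSO. Eef2, the translocation factor, was lower in KO under both treatments, by -0.75 (SE 0.075, adjusted p = 2.61e-07) in BafA1 and -0.43 (SE 0.075, adjusted p = 0.000102) in DMSO. Of 21 other genes with TOP mRNAs, 6 fell (28.6%) and 1 rose (4.76%) in KO DMSO against WT DMSO. Their median log2 fold change was -0.068, against -0.25 over the members. Among them Npm1 changed by -0.58 (SE 0.073, adjusted p = 2.17e-06) and Nap1l1 by -0.73 (SE 0.08, adjusted p = 2.5e-07), whereas Snhg1, a host of small nucleolar RNAs, changed by 0.98 (SE 0.20, adjusted p = 0.000474).

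With BafA1, initiation factors were called mostly in the higher direction in both genotypes. Of 33 tested, 14 rose (42.4%, against 21.6% of all genes tested) and 1 fell in WT BafA1 against WT DMSO. In KO BafA1 against KO DMSO 9 rose (27.3%, against 19.8% of all genes) and 2 fell. In KO DMSO against WT DMSO 5 rose (15.2%, near the 13.8% of all genes) and 3 fell. In KO BafA1 against WT BafA1 6 were higher and 5 lower, with a median of -0.044. Eif6, which keeps the subunits apart, rose by 0.94 in WT BafA1 and by 0.49 in KO BafA1 (adjusted p = 7.52e-09 and 0.000133). Of 68 genes of nucleolar ribosome biogenesis, 8 rose (11.8%) and 7 fell (10.3%) in KO DMSO against WT DMSO, with a median of -0.021. Of all genes tested 13.8% were higher and 16.5% lower there. Dkc1, the pseudouridine synthase of small nucleolar RNPs, changed by -0.88 (SE 0.11, adjusted p = 2.99e-06) in that comparison, and its difference of responses was 0.98 (SE 0.16, adjusted p = 0.00053).

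For the remaining lists, the counts in KO DMSO against WT DMSO stand beside the 13.8% of all genes tested that were higher and the 16.5% that were lower. Of 20 tested mTORC1 genes 2 rose and 2 fell, of 14 assembly and chaperone genes 5 rose (35.7%) and 1 fell, of 19 quality-control genes 4 rose and 2 fell, of 14 genes of Myc and ribosomal protein gene transcription 3 rose and 1 fell, of 12 p53 targets 2 rose and 2 fell, and of 14 stress-response genes 5 rose (35.7%) and 1 fell. Under BafA1 more genes of the integrated stress response list rose than fell in both genotypes. In KO BafA1 against KO DMSO 9 of 14 were higher (64.3%) and 1 lower, where 19.8% of all genes tested were higher and 20.7% lower. In WT BafA1 against WT DMSO 10 were higher (71.4%) and 1 lower, where 21.6% of all genes were higher and 25.3% lower. Atf4, the central factor of this response, changed with BafA1 by 0.98 (SE 0.099, adjusted p = 3.86e-08) in KO and 1.58 (SE 0.10, adjusted p = 1.33e-11) in WT. Myc was at 2.08, 3.05 and 3.94 CPM in KO DMSO, against 3.63, 3.54 and 4.75 CPM in WT DMSO, and every library lay under 5 CPM.

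Features named as pseudogenes of members (-ps) were counted apart. Of 321 such features of 64 members 130 were tested. In KO DMSO against WT DMSO 23 fell (17.7%, near the 16.5% of all genes tested). None rose (3 higher at an unadjusted p below 0.05), where 13.8% of all genes were higher. In KO BafA1 against WT BafA1 51 were higher (39.2%, against 12.5% of all genes) and 4 lower, with a median log2 fold change of 0.63. In KO BafA1 against KO DMSO 35 rose (26.9%, against 19.8% of all genes) and none fell (0 lower at an unadjusted p below 0.05). In WT BafA1 against WT DMSO 36 fell (27.7%, near the 25.3% of all genes) and 1 rose, where 21.6% of all genes were higher. The difference of the responses passed the threshold in 37 (28.5%, against 4.88% of all genes in that direction), all more positive in KO. How reads were divided between members and these features was not tested, and when their counts were added to the parent gene the difference of responses passed in 23 members.

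**Figure D5:**
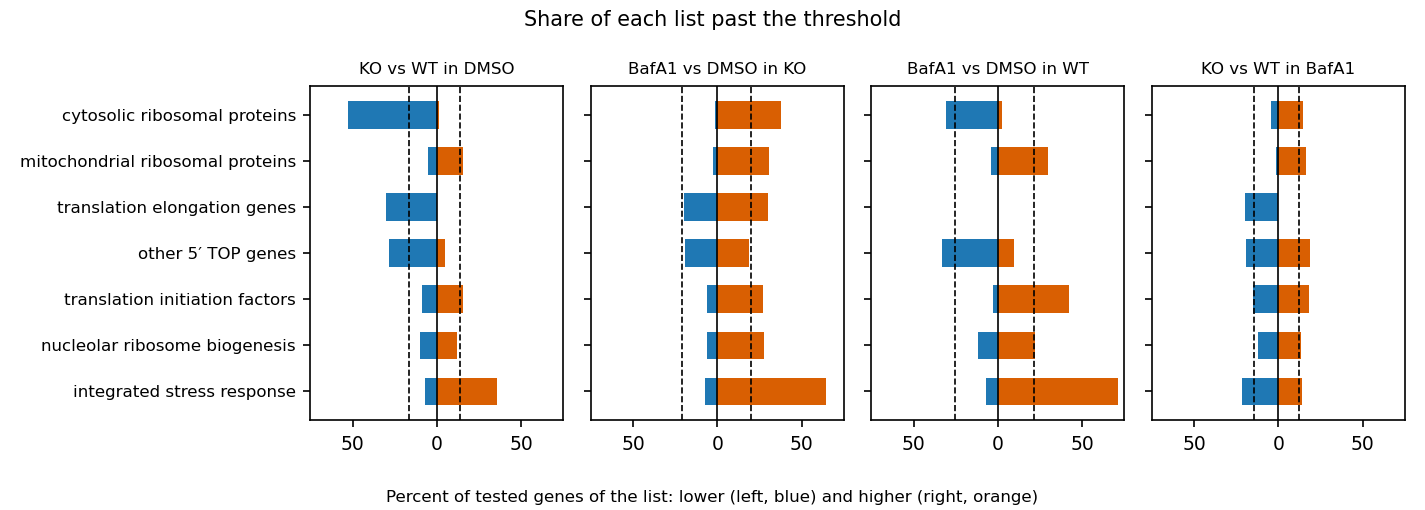
Percent of the tested genes of 7 lists called lower (left, blue) and higher (right, orange) in 4 comparisons, with dashed lines at the share of all genes tested. For KO against WT in DMSO, 52.9% of cytosolic ribosomal protein genes are lower, while mitochondrial ribosomal protein genes lie within the dashed line on that side.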

How the data were processed

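RNA from 12 cultures (4 groups of 3) was sequenced as 3′ mRNA libraries with molecular identifiers (UMIs), per the labels' protocols. The submitters' processing notes name Salmon and GRCm39. The table the authors deposited holds estimated counts per gene, most of them not whole for genes with near-identical copies; how UMIs were used is not given in the sources used here. The authors also deposited log2 CPM values (scaled by library size, as judged from the values), which were not used in the tests. The test planned for whole counts was run on the estimated counts rounded to whole numbers. Totals of 4407466 to 7074860 limit precision for low genes, and the common biological coefficient of variation was 0.08.

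Genes with at least 10 counts (filterByExpr, total 15) entered edgeR (version 4.0.16, under R 4.3.3, with limma 3.58.1) as TMM-scaled quasi-likelihood fits over all 12 libraries with 1 mean per group. Benjamini-Hochberg adjustment covered all 12052 genes, with a threshold of 0.05. The 5 comparisons were KO against WT in each treatment, BafA1 against DMSO in each genotype, and the difference of the responses. Log2 fold changes are KO over WT, or BafA1 over DMSO, with SE. The fits were tested on simulated data. Each replicate is labelled biological, and p-values measure the spread between these cultures.

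Named members were the 5 highest and 5 lowest called per comparison, the 5 most abundant, and fixed members by role; list genes were the 3 with the smallest p per list and comparison, named here in part. Rps9, Rpl19, Rpl9, Rps28, Rps15a, Rpl27a, Rack1, Myc and Rpl4 were named for other reasons given beside them or after their values were seen. Values of some single genes are not reported here. Members and lists were chosen with earlier results of these data known. Alternatives were library-size, upper-quartile or DESeq2 (1.42.0) scaling, fits on the 6 libraries compared, DESeq2 and limma-voom tests, other filters, a 1.5-fold limit, added pseudogene counts, each library left out in turn and a replicate block. Same-numbered libraries did not deviate together, so the numbers were not used as pairs. Figures were drawn with matplotlib 3.10.9.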

Additional observations from a re-analysis of the deposited data

Results flagged for a closer look

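The difference of the BafA1 responses (KO minus WT, log2) passed the threshold of edgeR's test of that difference in 21 members, every one above 0, of which the following are given. For the pseudogene entry Rpl6l it was 0.92. Among large-subunit members it was 0.74 for Rpl22l1, 0.59 for Rpl10a, 0.51 for Rpl35a, Rpl41 and Rpl36a, 0.49 for Rpl3, 0.47 for Rpl22, 0.44 for Rpl34 and 0.42 for Rpl7a. Among small-subunit members it was 0.59 for Rps27a, 0.58 for Rps18, 0.56 for Rps12, 0.49 for Rps13, 0.45 for Rps10, 0.43 for Rps14, 0.41 for Rps23, 0.38 for Rps21, 0.37 for Rps3 and 0.36 for Rps25.

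Of the listed genes outside the members, the difference was above 0 for Dkc1 (0.98), Nap1l1 (0.67), Wdr12 (0.56), Eif4a2 (0.54), Eef1b2 (0.50) and Npm1 (0.40). It was below 0 for Ddit3 (-1.31), Ppp1r15a (-1.20) and Trib3 (-1.03), genes of the stress response, and for Mlst8 (-0.78), Hbs1l (-0.67), Mnt (-0.61), Tsc1 (-0.53), Eif6 (-0.45), Vim (-0.37) and Eif3c (-0.34).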

How the results depend on the processing

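No named member's call changed direction under the alternatives run, but over the named members' alternatives 156 lost a call and 143 gained one. With the replicate block, which the numbers do not justify (same-numbered deviations had a median r of -0.007), 17 members passed for the difference of responses, 29 rose with BafA1 in KO, 45 fell and 2 rose in KO against WT in DMSO, and 26 fell with BafA1 in WT. Under the replicate block Rpl10a, Rpl36a and Rps27 lost their call for BafA1 in KO, Rplp1 that for KO in DMSO and Rpl10 that for KO in BafA1. Library-size scaling gave 37 for the difference of responses, 9 lower in KO under BafA1 and 2 lower with BafA1 in KO. DESeq2 gave 7 lower in KO under BafA1, 4 higher with BafA1 in WT and 2 lower with BafA1 in KO, and limma-voom gave 2 lower there. Both limma-voom and DESeq2's scaling in edgeR gave 2 higher in KO under DMSO. With no filter the counts were 32 for the difference, 17 lower with BafA1 in WT and 0 lower with BafA1 in KO, and with a 10 CPM filter 8 were lower in KO under BafA1 and 2 lower with BafA1 in KO. Past a 1.5-fold limit, 4 remained for the difference, 3 higher and 0 lower for BafA1 in KO, 0 higher and 2 lower both for BafA1 in WT and for KO in DMSO, and 2 higher and 0 lower for KO in BafA1. Leaving out 1 library gave 7 to 36 for the difference (median 0.2126 to 0.3533), 16 to 45 higher and 0 to 2 lower for BafA1 in KO (median 0.1147 to 0.2622), and 1 to 4 higher and 9 to 33 lower for BafA1 in WT (median -0.1827 to -0.0409). It gave 1 to 2 higher and 29 to 52 lower for KO in DMSO (median -0.3042 to -0.1678), and 5 to 18 higher and 2 to 8 lower for KO in BafA1 (median -0.0043 to 0.1111). The share of counts in members then differed by 0.6727 to 1.029 percentage points for BafA1 in KO, -0.5547 to -0.2042 for BafA1 in WT, -1.341 to -0.9903 for KO in DMSO, and -0.1135 to 0.2433 for KO in BafA1, where it was -0.1135 without KO BafA1 replicate 3 and also below 0 without WT BafA1 replicate 3. The cause of these shifts was not tested.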
